A study of Mus musculus with 3 samples.

Results

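The small leucine-rich proteoglycans are secreted matrix proteins built on leucine-rich repeats, and 10 of their genes, *Dcn*, *Lum*, *Kera*, *Fmod*, *Ogn*, *Bgn*, *Epyc*, *Prelp*, *Optc* and *Aspn*, were followed here out of 31053 genes counted in single cells of the mouse iridocorneal angle and limbus. The genes were chosen as a named list, by symbol, and all 10 were found in each library. Their unique molecular identifiers (UMIs, 1 for each captured transcript molecule) were counted in the cells that the authors kept, by the authors' cell label and by library.

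The study compared eyes that carry *Angpt1* flox/flox alleles without Cre (control, 2 libraries) with eyes that are *Angpt1* flox/flox;Wnt1Cre+ (*Angpt1*ΔNC, 1 library), in which Cre is driven in the neural crest, the source of corneal stroma, corneal endothelium and trabecular meshwork. All animals were 6 weeks old and of mixed strain, after crossing onto ICR mice to obtain albino litters, and each library pooled 4 to 6 eyes of 2 to 3 mice, so cells are not replicates: there are 2 control replicates and 1 *Angpt1*ΔNC replicate. *Angpt1* itself had a UMI in 17.2% of the cells of control 1, in 17.3% of control 2 and in 0.34% of *Angpt1*ΔNC. The study names exon 1 as the deleted part, and where along the transcript the counted reads lie is not given in the sources used here.

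The libraries held 6772 to 10160 kept cells and 66484181 to 80346829 UMIs, with medians of 6329.5 to 7444 UMIs per cell. Any pair of libraries shared 13 to 25 cell barcodes, of which 1 in each pair carried the same cell label. The labels say that the sexes were pooled, but 3 and 2 control cells had an *Xist* UMI against 3975 cells of *Angpt1*ΔNC, so genotype and sex cannot be told apart without the cells typed as male (6325, 7326 and 1990 cells), which were fitted as an alternative.

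In connective tissue these proteins bind collagen fibrils and set their diameter and spacing, on which the transparency of the cornea rests. Class I members (decorin, biglycan and asporin, from *Dcn*, *Bgn* and *Aspn*) carry dermatan or chondroitin sulfate chains or, for asporin, none. Class II members (lumican, keratocan, fibromodulin and PRELP, from *Lum*, *Kera*, *Fmod* and *Prelp*) are the keratan sulfate branch, in which lumican and keratocan are the classic proteoglycans of the corneal stroma. Class III members (epiphycan, opticin and osteoglycin, from *Epyc*, *Optc* and *Ogn*) are known from cartilage, the vitreous and many stromal tissues.

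The genes lie in blocks (GENCODE M21, GRCm38). On chromosome 10, *Dcn* (chr10:97479609-97518143), *Lum* (chr10:97565128-97572703), *Kera* (chr10:97606879-97613692) and *Epyc* (chr10:97644068-97682454) follow each other on the plus strand with no other protein-coding gene between them. On chromosome 1, *Optc* (chr1:133897199-133907999) and *Prelp* (chr1:133910304-133921414) on the minus strand are followed by *Fmod* (chr1:134037254-134048277) on the plus strand. On chromosome 13, *Aspn* (chr13:49544443-49567565) and *Ogn* (chr13:49608046-49624501) flank the related gene *Omd*, and *Bgn* lies alone on the X chromosome (chrX:73483602-73495933). *Aspn* and *Ogn* overlap *Cenpp*, *Prelp* and *Optc* overlap *Gm15851* and *Epyc* overlaps *Gm10754*, so their counts are uncertain as far as the counting could share reads with these genes.

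Promoter windows, 250 bases before to 50 bases after the start site, matched 8 of the 10 genes in RefSeq (GRCm38.p6), and 3 are shown, that of *Kera* because its transcript had the largest fall among the members in their leading labels, and those of *Aspn* and *Ogn* because this pair of neighbours holds the TATAAA motif. Capitals mark TATAAA, searched on both strands, where it reads TTTATA on the other strand. The RefSeq starts of *Kera* and *Ogn* differ from the GENCODE starts given above. All 3 windows lie on the plus strand, at chr10:97606955-97607254 for *Kera*, chr13:49544193-49544492 for *Aspn* and chr13:49607765-49608064 for *Ogn*.
Kera: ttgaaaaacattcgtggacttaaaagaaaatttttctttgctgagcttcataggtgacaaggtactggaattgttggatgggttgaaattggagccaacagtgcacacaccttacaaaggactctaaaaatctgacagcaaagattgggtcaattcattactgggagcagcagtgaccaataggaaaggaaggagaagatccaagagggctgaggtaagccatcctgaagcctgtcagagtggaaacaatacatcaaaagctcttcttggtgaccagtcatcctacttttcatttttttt
Aspn: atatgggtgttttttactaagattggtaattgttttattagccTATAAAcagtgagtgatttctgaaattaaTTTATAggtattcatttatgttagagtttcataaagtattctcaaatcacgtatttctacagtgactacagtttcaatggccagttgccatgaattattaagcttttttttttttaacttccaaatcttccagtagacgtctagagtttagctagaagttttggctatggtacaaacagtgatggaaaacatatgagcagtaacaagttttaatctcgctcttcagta
Ogn: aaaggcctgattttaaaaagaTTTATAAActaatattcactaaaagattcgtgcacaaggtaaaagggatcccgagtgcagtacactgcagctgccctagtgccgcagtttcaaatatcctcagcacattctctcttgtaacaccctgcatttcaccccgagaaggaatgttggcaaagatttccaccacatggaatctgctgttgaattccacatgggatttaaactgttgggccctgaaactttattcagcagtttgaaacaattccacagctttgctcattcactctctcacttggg
The motif stands at -207 and -178 from the start site in *Aspn* and at -229 and -227, overlapping, in *Ogn*. It is in 13.6% of 32851 RefSeq promoter windows of this length, and these letters are not in the *Kera* window.

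The level of a gene is the UMI count of a cell per 10,000 UMIs, averaged over the cells of a label in a library. A gene was counted as expressed in a label when its mean over the 3 libraries was at least 0.5 and at least 5 times its level in the immune labels 22 to 25, which should lack these transcripts. Whether UMIs there come from free RNA or from remaining doublets was not tested. *Bgn* met this rule in 21 of 35 labels, *Ogn* in 19, *Dcn* in 15, *Lum*, *Prelp* and *Aspn* in 14 each, *Fmod* in 10, *Kera* in 4, *Epyc* in 3 and *Optc* in 1. The cell labels were clustered on genes that include these, so differences between labels are given as a description with no test.

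**Figure D1:**
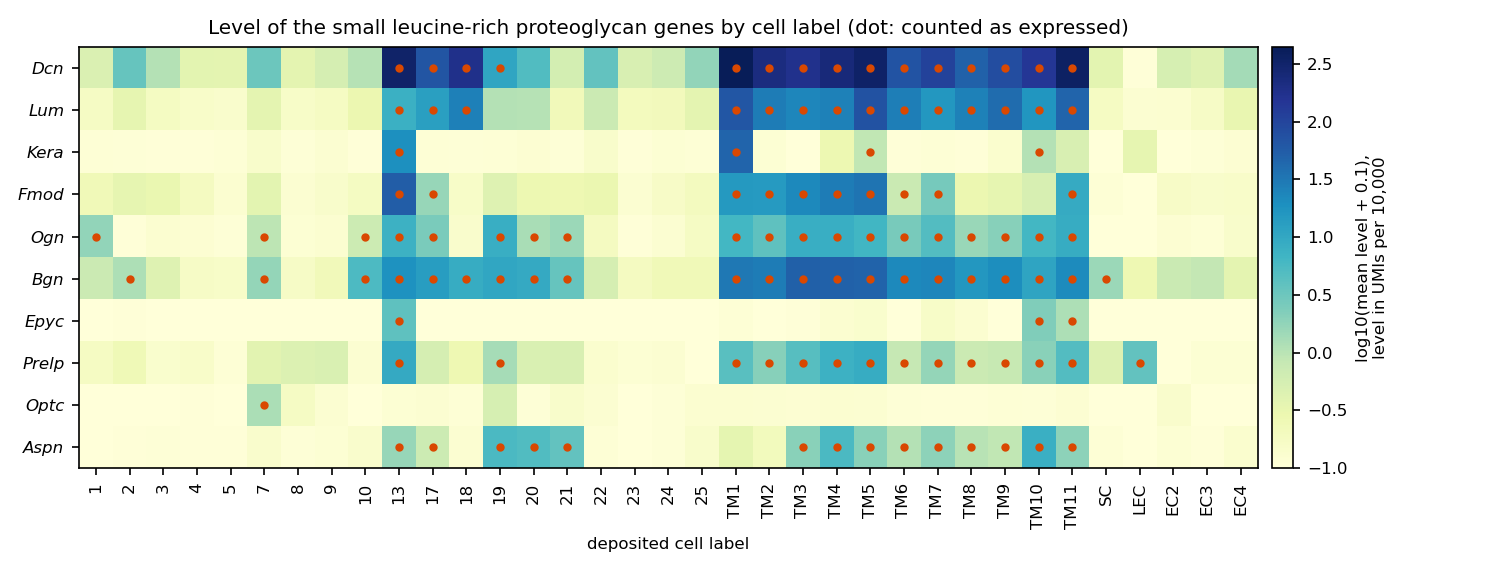
Mean level over the 3 libraries (colour, log10 of UMIs per 10,000 plus 0.1) of each gene (rows) in each of 35 cell labels (columns), with a dot where the gene counted as expressed. *Dcn*, *Lum* and *Bgn* fill the TM labels, *Kera* is dark in TM1 and 13, and *Optc* has its single dot in label 7.

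The labels TM1 to TM11 and 13 held most of the family. Label 13 expressed 9 of the 10 genes, TM5, TM10 and TM11 expressed 8, and TM1, TM3, TM4, TM6 and TM7 expressed 7. Labels 3, 4 and 5, which led in the keratins of surface epithelium, label 8, which led in 4 of 4 melanocyte markers, label 9, the immune labels and the endothelial labels EC2 to EC4 expressed none, and Schlemm's canal endothelium (SC) expressed *Bgn* alone, at 1.38 to 1.51 UMIs per 10,000 over the 3 libraries. Checked against marker genes over the 35 labels, TM1 was highest in *Angptl7* and *Kera* and second in *Aldh3a1* and *Lum* among keratocyte markers, TM2 was highest in 3 of 5 corneal endothelium markers, TM4 in 4 of 5 trabecular meshwork markers (*Myoc*, *Chil1*, *Chad* and *Nell2*) and TM10 in 5 of 5 adventitial fibroblast markers. Label 19 was highest in 4 of 4 smooth muscle markers and label 20 in 3 of 3 pericyte markers. Label 7 was highest in *Pcp4* and *Pax6* among the ciliary epithelium markers, beside *Optc* itself. The other ciliary markers were highest elsewhere, *Wfdc1* in label 19 and *Otx1* in label 3. Smooth muscle markers in label 7 summed to 108.6, 95.2 and 56.3. *Kera* and *Lum* among the keratocyte markers are members too. *Aldh3a1* was highest in label 5 and *Ptgds* in label 1.

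*Dcn*, whose protein binds collagen I and TGF-β, was the most abundant of the 10 transcripts, with 49.1, 59.0 and 76.9 UMIs per 10,000 over all kept cells of control 1, control 2 and *Angpt1*ΔNC. A UMI stands for 1 molecule, so levels of different genes were set side by side without division by length. Its level was highest in TM1, at 413.1, 457.6 and 455.6, followed by TM11, at 336.4, 351.1 and 370.7. The ranges of these labels do not overlap, whereas those of TM11, TM5 (283.7, 359.1 and 370.0) and 13 (316.8, 271.8 and 378.2) do. The 15 labels that expressed *Dcn* spanned from 4.31 UMIs per 10,000 in the lowest library of label 19 to 457.6 in the highest library of TM1. *Dcn* led the family in every library in 24 of 35 labels, and it made up 14.5 to 86.9% of the summed level of the 10 genes where it was expressed.

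*Bgn*, the X-linked relative of *Dcn*, had another order. It was highest in TM3, at 59.5, 51.7 and 45.0 UMIs per 10,000, and its range there overlaps those of TM4 (54.0, 49.97 and 45.6) and TM5 (53.1, 48.7 and 41.8). TM1, which led for *Dcn*, had 36.1, 31.7 and 27.6 of *Bgn*, below the ranges of TM3, TM4 and TM5. *Bgn* led the family in every library in 4 labels, among them EC3, which did not express it by the rule above. In label 10, which led in 3 of 4 glia markers, it held 79.98, 78.2 and 58.3% of the summed level of the 10 genes.

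*Aspn*, the member of class I that lacks a glycosaminoglycan chain, was highest in TM10, at 8.56, 8.91 and 6.46 UMIs per 10,000. Label 19 came next, with 4.601, 5.37 and 6.44, which does not overlap TM10. TM4 (5.36, 6.43 and 4.32) and label 20 (4.83, 5.91 and 4.16) overlap label 19. In label 21 *Aspn* had 3.06, 4.10 and 3.75 UMIs per 10,000 and made up 34.04% of the summed level of the family in control 2 and 43.99% in *Angpt1*ΔNC.

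Among the class II genes, *Lum* was highest in TM5 (71.0, 80.3 and 63.3 UMIs per 10,000) and TM1 (71.4, 72.9 and 49.6), whose ranges overlap. Its pattern over the 35 labels was the most like that of *Dcn* among 7797 genes ranked (Pearson's r of 0.967 on control means of the labels, given as a description since labels share libraries and depth). In label 13, however, *Lum* was at 4.93, 4.71 and 13.2, while *Dcn* was at 316.8, 271.8 and 378.2.

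*Kera* was far more restricted. In controls 80.7 and 81.9% of its UMIs came from TM1 and 16.4 and 15.1% from label 13. It was at 65.7, 59.6 and 15.8 UMIs per 10,000 in TM1 and at 26.0, 20.7 and 10.1 in label 13, and TM1 was above label 13 in each of the 3 libraries, although the ranges over libraries overlap. TM10 (1.53, 1.24 and 0.187) and TM5 (1.10, 0.858 and 0.428) were the other labels that expressed it. In the immune labels 1.10, 0.788 and 0.462% of the cells had a *Kera* UMI. The gene most like *Kera* over the labels was *Angptl7* (r of 0.877), which encodes a secreted angiopoietin-like protein of the corneal stroma and outflow tissue.

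*Fmod* was highest in label 13, at 61.7, 64.6 and 40.7 UMIs per 10,000, by the mean over libraries, and TM5 had 33.3, 34.1 and 32.8. The ranges of these labels do not overlap, but TM4 (22.5, 22.2 and 41.0) overlaps label 13. Its closest gene over the labels was *Tnmd* (r of 0.971), a marker of tendon and ligament cells. *Prelp*, whose protein links basement membranes to collagen, had overlapping ranges in label 13 (7.70, 10.4 and 9.91) and TM5 (8.08, 9.11 and 8.55). Its level in lymphatic endothelium (LEC), at 7.59, 0.735 and 2.76, rests on 3, 1 and 12 cells.

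Among the class III genes, *Ogn* had no single leading label. The 5 labels with its highest means, TM11, 19, TM3, TM4 and 13, lay between 6.71 and 10.2 UMIs per 10,000 in all libraries and overlap each other. *Epyc* was found in label 13 (5.90, 3.54 and 2.42), TM10 (2.15, 3.22 and 1.19) and TM11 (1.70, 0.715 and 0.871), with ranges that overlap between neighbours. *Optc*, a protein of the vitreous made by ciliary epithelium, was expressed in label 7, at 1.88, 0.703 and 0.759, where 18.04, 11.2 and 16.5% of the cells had a UMI, against 0.274, 0.394 and 0.769% of immune cells. The smooth muscle label 19 missed the level threshold for *Optc* (0.355, 0.254 and 0.694), but 16.02, 14.4 and 25.9% of its cells had a UMI.

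Genotypes were compared within each label by summing the counts of each library and fitting edgeR's quasi-likelihood test over all genes, in the 32 labels with at least 20 cells in every library. Of the 320 pairs of a gene and a label, 197 passed the filter on low counts and 39 of these were called at an adjusted p under 0.05, 23 higher and 16 lower, which is 19.8% against 4.92% of all 267352 gene and label pairs (2.49% higher and 2.43% lower). Of the 112 pairs in which the gene counted as expressed, 11 were called higher in *Angpt1*ΔNC and 12 lower, which is 20.5% against 17% of the 15576 pairs of all genes that pass the same rule (7.83% higher and 9.17% lower). The share of the family is therefore near that background, and no property of the family as a whole is read from it. The shares of all genes given below for single labels cover genes at any level, like the 4.92%, and not only expressed genes, like the 17%. Counts of expressed members in a label are therefore not read as an excess over them. With 3 libraries the fit leaves 1 residual degree of freedom, and the spread of the single *Angpt1*ΔNC library is taken to be that of the controls. In summed counts, fewer cells of a kind within a label and less RNA per cell cannot be told apart.

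**Figure D2:**
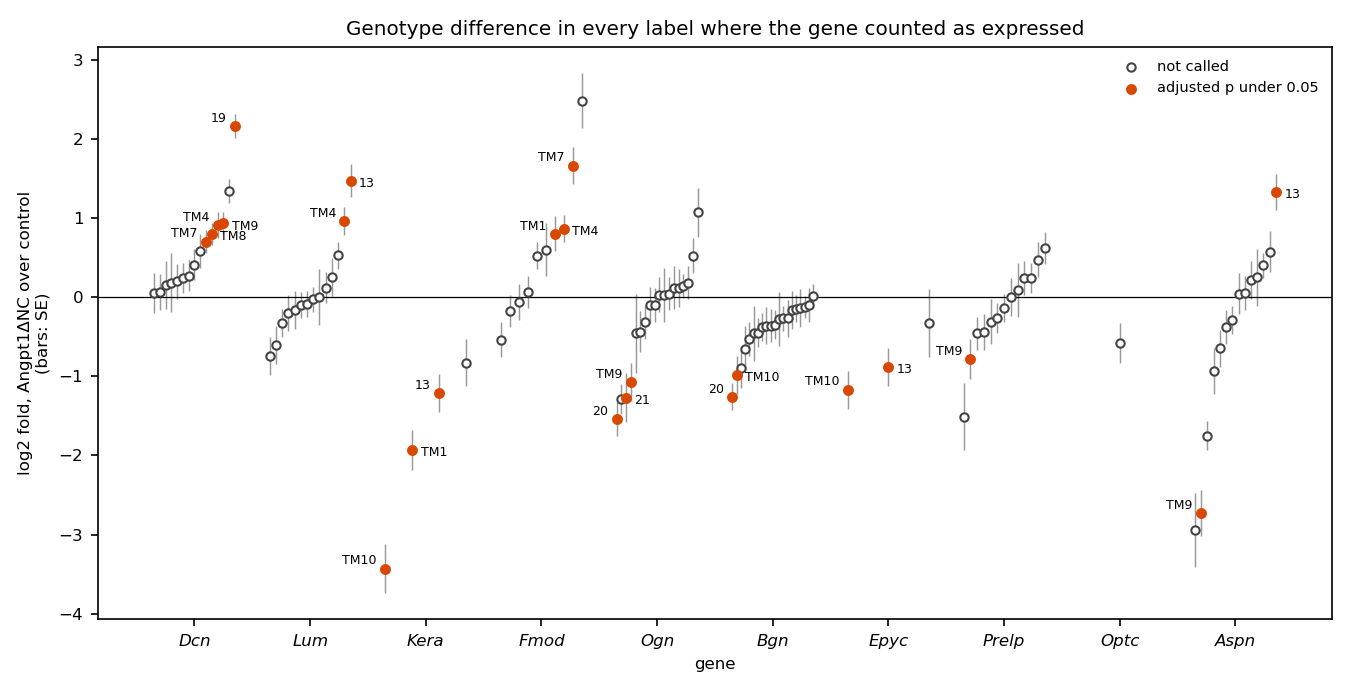
log2 fold of *Angpt1*ΔNC over control (vertical axis, bars give the SE) for each gene in each of its labels that counted as expressed and was fitted, sorted by size within a gene, filled where the adjusted p was under 0.05 and named by the label. The filled points of *Kera*, *Ogn*, *Bgn*, *Epyc* and *Prelp* lie below 0, those of *Dcn*, *Lum* and *Fmod* above 0, and *Aspn* has 1 on each side.

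*Kera* was lower in *Angpt1*ΔNC than in both controls in each of the 4 labels that expressed it, and 3 of these passed the test. In TM1 it fell 3.8-fold (log2 fold -1.93 ± 0.25 SE, adjusted p = 1.26e-11), in TM10 10.8-fold (log2 fold -3.43 ± 0.31, adjusted p = 3.15e-20) and in label 13 2.32-fold (log2 fold -1.21 ± 0.24, adjusted p = 3.16e-05). In TM5 the log2 fold was -0.83 ± 0.30 (adjusted p = 0.134). The call in label 13 is lost without the filter on low counts, in male-typed cells and in cells thinned to 1000 UMIs (log2 folds between -1.38 and -1.14 under the alternatives), and those in TM1 and TM10 held under the 6 alternatives run. Among these, keeping only labels with at least 50 cells refitted the same counts, so it could not end a call. The value in TM10 rests on 23, 24 and 5 positive cells and was -4.21 in male-typed cells. Of all genes, 4.79% were called in TM1, 11.6% in TM10 and 3.91% in label 13.

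By cell, *Kera* had a UMI in 97.5% of TM1 cells of control 1 (exact Clopper-Pearson 95% interval 93.7 to 99.3, counting error only), 89.9% of control 2 (83.8 to 94.2) and 65.2% of *Angpt1*ΔNC (55.8 to 73.9). The median TM1 cell was at 65.7, 63.1 and 8.30 UMIs per 10,000. Cells over 60 and up to 100 UMIs per 10,000 were 84 of 159 and 68 of 148 in the controls and 3 of 115 in *Angpt1*ΔNC, and 14, 11 and 0 cells lay over 100. With each cell thinned to 1000 UMIs the expected shares of positive cells were 95.6, 87.8 and 48.8%. *Dcn* had a UMI in every TM1 cell of the 3 libraries.

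**Figure D3:**
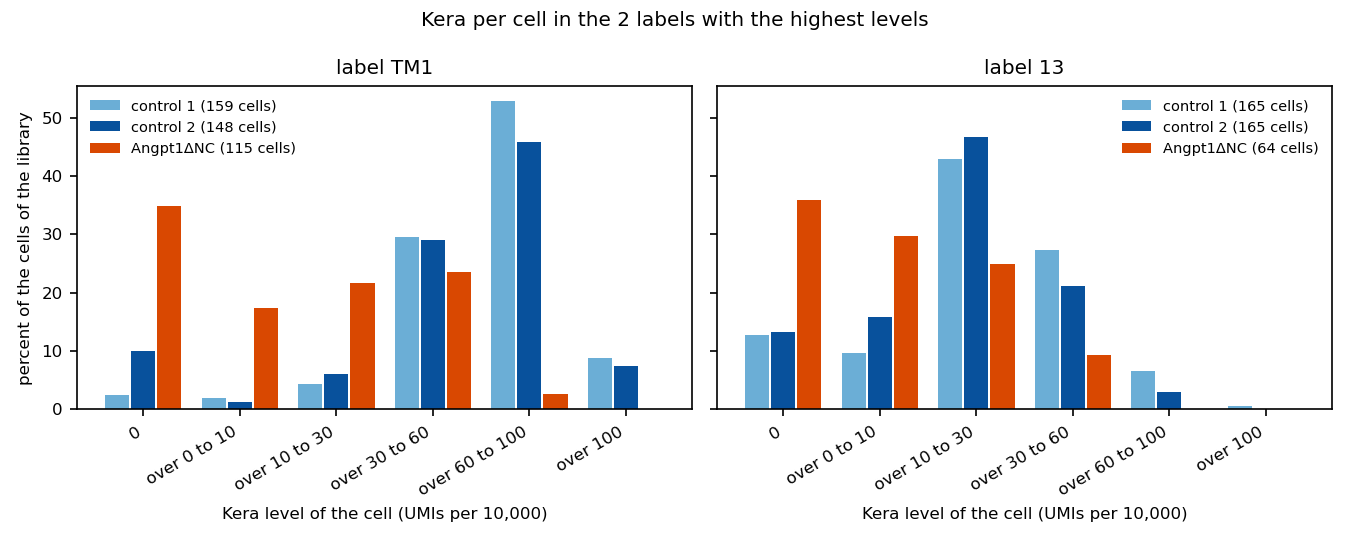
Percent of the cells of each library (vertical axis) by the *Kera* level of the cell in UMIs per 10,000 (horizontal axis, 6 bins) in TM1 (left) and label 13 (right). In TM1 the bin from 60 to 100 holds 52.8 and 45.9% of the control cells and 2.61% of the *Angpt1*ΔNC cells, and the bin at 0 holds 2.52, 10.1 and 34.8%.

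Other markers of keratocytes in TM1 did not all move with *Kera*. *Aldh3a1*, a corneal crystallin, was at 23.9, 27.1 and 14.2 UMIs per 10,000 (log2 fold -0.99, adjusted p = 0.00175), whereas *Angptl7* was at 31.1, 60.9 and 43.3 (log2 fold -0.16, adjusted p = 0.826) and *Ptgds* had a log2 fold of -0.53 (adjusted p = 0.365). *Lum* was at 71.4, 72.9 and 49.6 in TM1 (log2 fold -0.60 ± 0.24, adjusted p = 0.149). The summed level of the smooth muscle markers in TM1, of which 3 of 3 tested were called higher, was 0.451, 0.389 and 1.24. The part of *Aldh3a1* and of these markers in the fall of *Kera* was not tested. *Chst5*, a sulfotransferase of keratan sulfate chains that was highest in TM1 among the 35 labels, fell there too (4.33, 3.04 and 1.86 UMIs per 10,000, log2 fold -1.11 ± 0.24, adjusted p = 0.000402).

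*Dcn* was called higher in 5 of its 15 expressed labels and lower in none. The rule for expression averages all 3 libraries, so the *Angpt1*ΔNC level itself helps decide which labels count. Label 20 missed the rule and was lower, at 6.51, 6.11 and 2.25, as given below. Over all 32 fitted labels *Angpt1*ΔNC lay above both controls in 25 and below both in 2. *Angpt1*ΔNC lay above both controls in 13 of the 15, against 34.8% of the expressed pairs of all genes, and the median log2 fold was 0.41 where that of all expressed pairs was -0.039. The labels come from the same 3 libraries, so they are not replicates and these counts are a description. In TM9 *Dcn* was at 63.5, 67.7 and 114.1 UMIs per 10,000 (1.9-fold, log2 fold 0.93 ± 0.14, adjusted p = 3.92e-09), and in TM4 at 177.7, 203.0 and 353.1 (1.88-fold, log2 fold 0.91 ± 0.17, adjusted p = 0.00258). TM8 (39.6, 43.7 and 65.3, adjusted p = 0.00739) and TM7 (85.8, 94.6 and 143.0, adjusted p = 0.0365) passed as well, in fits that called 3.58% and 5.07% of all genes. TM6, at 47.5, 46.3 and 114.6, had a larger log2 fold of 1.34 ± 0.15 but an adjusted p of 0.0862, in a fit in which edgeR called 0% of 5200 genes, with 729 at an unadjusted p under 0.05, and DESeq2 called 54 of 1722. In TM1, where *Dcn* was most abundant, the log2 fold was 0.05 ± 0.25.

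The largest log2 fold of *Dcn* was in the smooth muscle label 19, at 4.31, 5.34 and 21.8 UMIs per 10,000 (4.48-fold, log2 fold 2.16 ± 0.15, adjusted p = 4.4e-05), where 0.966% of all genes were called. Label 19 could not be fitted in male-typed cells, so genotype and sex cannot be told apart for this rise. This label had 387, 499 and 54 cells, and cells over 10 UMIs per 10,000 were 10.6, 13.2 and 27.8% of them. The median cell was at 0, 1.42 and 2.09. The immune labels, in which *Dcn* should be absent, were also higher in *Angpt1*ΔNC, with 0.648, 0.945 and 1.75 UMIs per 10,000 and a *Dcn* UMI in 21.0, 23.2 and 31.2% of the cells. In label 22, which led in 3 of 3 T cell markers and where 4.03% of all genes were called, *Dcn* was at 1.28, 3.00 and 6.77 UMIs per 10,000 (log2 fold 1.55 ± 0.32, adjusted p = 0.000121), with a UMI in 12 of 89, 21 of 133 and 25 of 105 cells. The median cell of label 22 was at 0 in each library, and 2, 5 and 7 cells were over 10 UMIs per 10,000. *Lum* was at 0.467, 0.258 and 1.15 there (adjusted p = 6.75e-06). The pericyte markers of label 19 summed to 6.25, 6.16 and 0.466 and its dissociation stress genes to 81.4, 68.0 and 41.7, with 1 of 2 and 1 of 4 tested called lower. *Myoc*, a trabecular meshwork marker, was at 0.0305, 0.0397 and 0.993 in label 19 (log2 fold 5.12, adjusted p = 5.9e-05) and *Ptgds* at 1.05, 0.892 and 2.16 (adjusted p = 0.00575). The part of free RNA, doublets and these markers in the rise in label 19 was not tested.

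**Figure D4:**
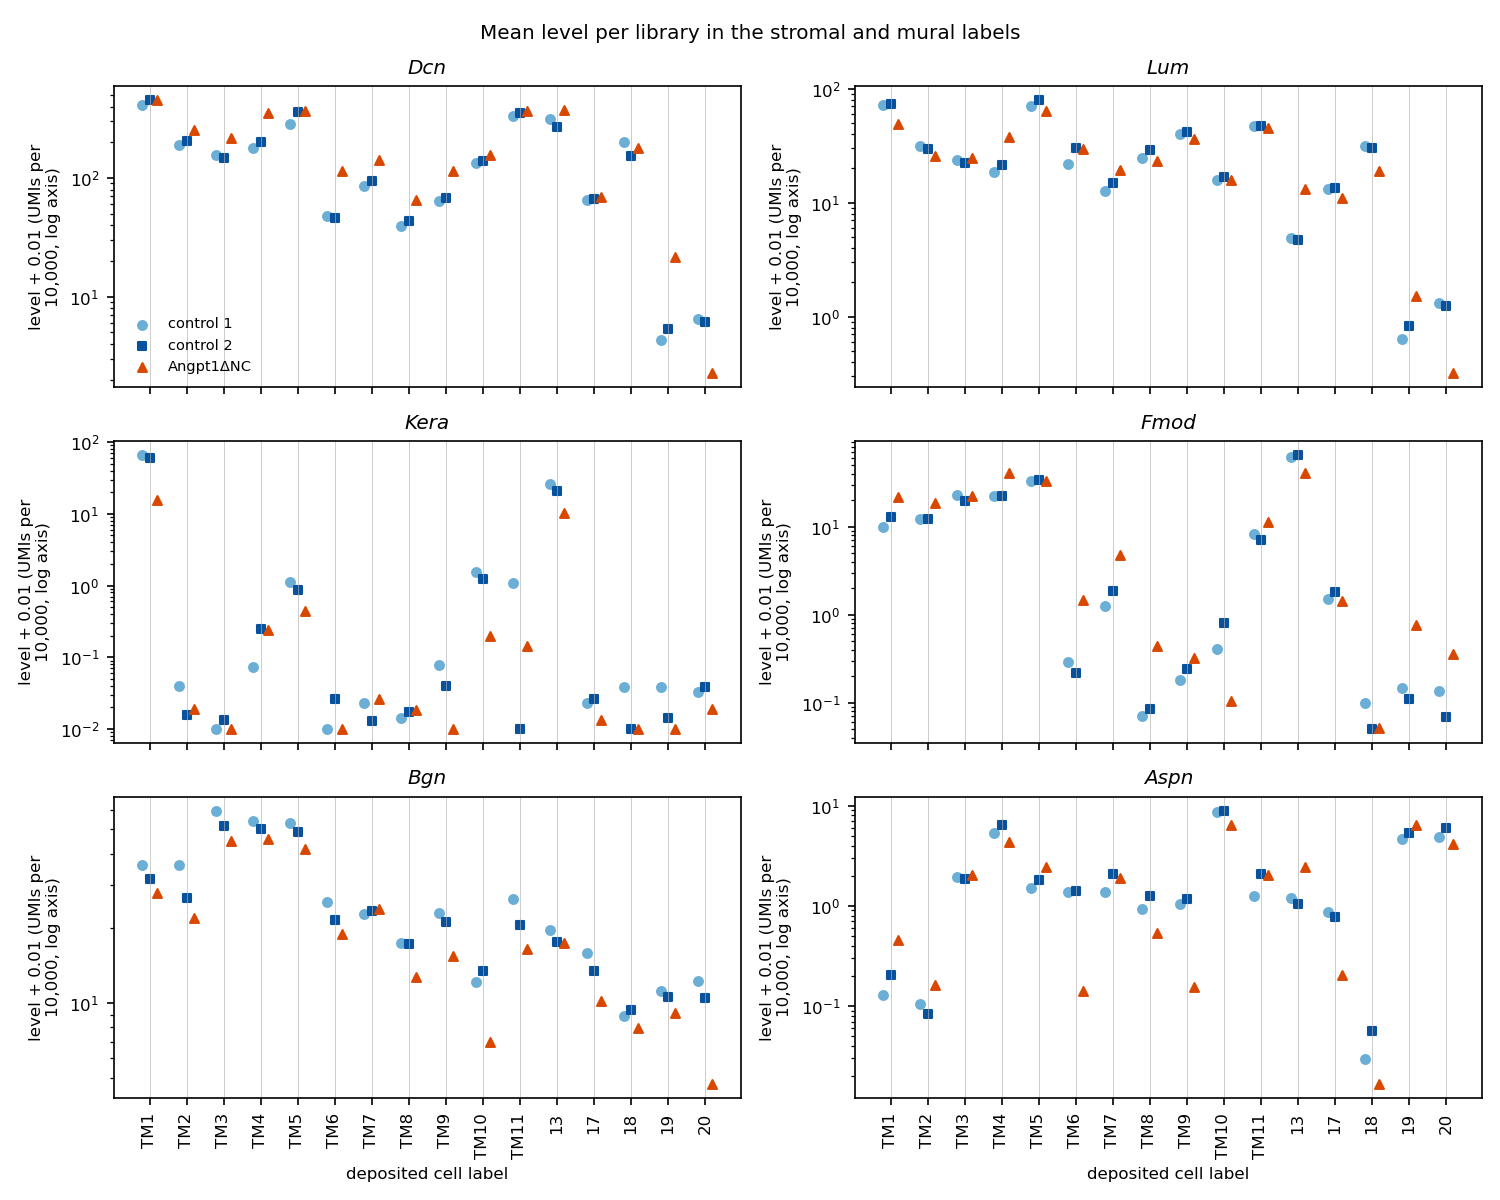
Mean level (vertical log axis, UMIs per 10,000 plus 0.01) of 6 of the genes in each library (circle control 1, square control 2, triangle *Angpt1*ΔNC) by cell label (horizontal axis). The triangles of *Dcn* lie above the control points in 13 of the 15 labels that expressed it, those of *Kera* below them in 4 of 4, those of *Bgn* below them in most labels, and those of *Fmod* and *Aspn* on either side.

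In TM4 *Dcn*, *Lum* and *Fmod* of 7 expressed members were called higher and none lower. Of all tested genes at any level, 6.52% were called there in either direction. *Lum* went from 18.7 and 21.5 to 37.9 UMIs per 10,000 (log2 fold 0.96 ± 0.18, adjusted p = 0.00357) and *Fmod* from 22.5 and 22.2 to 41.0 (log2 fold 0.86 ± 0.17, adjusted p = 0.00579). The median TM4 cell had 17.4, 17.9 and 36.6 of *Fmod*, and the share of cells over 10 was 72.4, 72.7 and 95.5%. *Bgn* (54.0, 49.97 and 45.6, adjusted p = 0.70) and *Aspn* (5.36, 6.43 and 4.32, adjusted p = 0.347) were below both controls without passing. The calls for *Dcn*, *Lum* and *Fmod* in TM4 held under the 6 alternatives run. The limit of 50 cells among these refitted the same counts, so it could not end a call.

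Markers of other cell types moved in TM4 as well. The summed level of the trabecular meshwork markers was 128.2, 129.8 and 59.9 UMIs per 10,000, with 3 of 5 called lower (*Myoc*, *Chil1* and *Chad*). That of the adventitial fibroblast markers was 9.54, 9.71 and 2.19, with 3 of 5 called lower, and that of the corneal endothelium markers 4.97, 5.20 and 10.0, with 3 of 5 called higher. *Rgs5* was at 8.54, 5.72 and 0.236. Their part in the changes of *Dcn*, *Lum* and *Fmod* was not tested.

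*Fmod* was also higher in TM7, at 1.23, 1.87 and 4.76 UMIs per 10,000 (3.15-fold, log2 fold 1.66 ± 0.23, adjusted p = 0.00669), and in TM1, at 9.93, 12.8 and 21.5 (log2 fold 0.80 ± 0.22, adjusted p = 0.00912). The TM1 call is lost with DESeq2, in male-typed cells and in thinned cells. In TM7 the trabecular meshwork markers summed to 29.6, 40.6 and 10.4 (2 of 5 called lower), the pericyte markers to 11.9, 9.81 and 3.43 (2 of 3 lower) and the smooth muscle markers to 3.25, 5.07 and 12.0 (2 of 4 higher). In TM8 the pericyte markers summed to 4.32, 3.11 and 0.602 (2 of 3 lower) and the smooth muscle markers to 1.98, 2.08 and 5.42 (2 of 4 higher). Their part in the rises of *Fmod* and *Dcn* in these labels was not tested. In label 13 *Fmod* was at 61.7, 64.6 and 40.7 (log2 fold -0.54 ± 0.22, adjusted p = 0.176).

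In label 13, which holds 165, 165 and 64 cells, 4 of 9 expressed members were called. Of all tested genes at any level, 3.91% were called there. *Lum* was higher (4.93, 4.71 and 13.2 UMIs per 10,000, log2 fold 1.47 ± 0.21, adjusted p = 3.05e-09), as was *Aspn* (1.19, 1.04 and 2.42, log2 fold 1.33 ± 0.23, adjusted p = 1.4e-06). *Kera* was lower, as given above, and so was *Epyc* (5.90, 3.54 and 2.42, log2 fold -0.88 ± 0.24, adjusted p = 0.00989). All of these calls in label 13 are lost without the filter on low counts, in male-typed cells and in thinned cells, and those of *Epyc* and *Aspn* also with DESeq2. Their directions held, with log2 folds of *Lum* between 1.24 and 1.86 and of *Epyc* between -1.29 and -0.81 under these alternatives. The log2 fold of *Aspn* was 2.15 in male-typed cells and 0.53 in thinned cells. The log2 fold of *Epyc* was -0.42 without control 1 and -1.22 without control 2. Among the markers, *Mfap5* was higher in label 13 (1.28, 1.14 and 3.98, adjusted p = 9.96e-12) and *Pi16* lower (5.36, 5.44 and 1.17, adjusted p = 2.12e-13).

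*Aspn* in TM9 went the other way. It was at 1.04, 1.16 and 0.145 UMIs per 10,000 and fell 6.63-fold (log2 fold -2.73 ± 0.29, adjusted p = 3.52e-18), with a UMI in 33.8, 34.6 and 7.03% of the cells. TM6 (1.36, 1.41 and 0.132, log2 fold -2.94 ± 0.47, adjusted p = 0.103) and label 17 (0.857, 0.756 and 0.193, log2 fold -1.75 ± 0.18, adjusted p = 0.0516) had low values in *Angpt1*ΔNC that did not pass. In TM9 4 of 6 expressed members were called, and of all tested genes at any level 15.1% were. *Ogn* was lower at 1.91, 2.94 and 1.13 (log2 fold -1.07 ± 0.24, adjusted p = 0.000183) and *Prelp* at 0.780, 0.852 and 0.465 (log2 fold -0.78 ± 0.25, adjusted p = 0.0171), and these calls are lost with DESeq2, in male-typed cells and in thinned cells. The TM9 libraries also differed in dissociation stress genes, with summed levels of 11.4, 9.34 and 5.98 and 3 of 4 called lower. Endothelium markers summed to 0.0186, 0.0337 and 1.53 in TM9 (1 of 1 tested called higher), smooth muscle markers to 3.02, 3.54 and 7.41 (1 of 3 higher) and trabecular meshwork markers to 1.42, 2.75 and 0.0727 (2 of 3 lower). The part of these in the TM9 changes, that of *Dcn* included, was not tested.

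*Bgn* lay below both controls in 19 of the 20 fitted labels that expressed it, against 46.7% of the expressed pairs of all genes. Its median log2 fold there was -0.36. Over all 32 fitted labels it lay below both controls in 22 and above both in 4. As for *Dcn*, the labels share the same libraries and are not replicates, so these counts are a description. In EC3, where it did not count as expressed, *Bgn* was called higher (0.580, 0.472 and 1.18, log2 fold 1.5 ± 0.28). Among the labels that expressed it, *Bgn* passed the test in label 20 (12.2, 10.5 and 4.70 UMIs per 10,000, 2.39-fold lower, log2 fold -1.26 ± 0.17, adjusted p = 0.000146) and in TM10 (12.2, 13.5 and 6.95, log2 fold -0.98 ± 0.24, adjusted p = 0.00168, lost in thinned cells). *Bgn* is X-linked and the pools differ in sex. In male-typed cells its log2 fold was below 0 in 13 of 15 labels, with a median of -0.31 and 2 labels called lower. In the 15 labels that expressed *Dcn*, the share of *Dcn* in the summed level of the family was above both controls in 15 and that of *Bgn* below both in 14. These shares sum to a whole, so a rise in one lowers the others.

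Label 20 had a lower summed level of the family in *Angpt1*ΔNC, with 26.97, 25.8 and 12.6 UMIs per 10,000. Of its 3 expressed members *Bgn* and *Ogn* (1.44, 1.55 and 0.501, log2 fold -1.54 ± 0.22, adjusted p = 0.000187) fell, where 7.67% of all genes were called, and *Aspn* (4.83, 5.91 and 4.16) had an adjusted p of 0.366. *Dcn* missed the rule for expression there at 4.45 times the immune level. It was at 6.51, 6.11 and 2.25 (log2 fold -1.56 ± 0.18, adjusted p = 2.64e-05). The pericyte markers summed to 93.9, 106.2 and 85.2, with none of 3 called. Of the keratocyte markers that are no members, *Aldh3a1* (0.197, 0.200 and 0.0321, adjusted p = 0.0113) and *Ptgds* (1.92, 1.61 and 0.974, adjusted p = 0.0115) were called lower, and *Lum* itself was at 1.32, 1.22 and 0.307 (adjusted p = 4.23e-05). The log2 fold of *Ogn* was -3.84 in male-typed cells. *Fmod*, which also missed the rule for expression, was higher in label 20 (0.127, 0.0581 and 0.350). The part of free RNA and of these markers in these falls was not tested. *Ogn* was also lower in label 21 (1.51, 2.30 and 0.541, log2 fold -1.27 ± 0.31, adjusted p = 0.00134, lost with DESeq2 and in thinned cells), where 8.21% of all genes were called, and its log2 fold was -2.13 in male-typed cells. In label 21 the smooth muscle markers summed to 226.3, 241.9 and 132.9, with 3 of 4 called lower, and the pericyte markers to 30.97, 24.85 and 65.3, with 2 of 3 called higher, and their part was not tested.

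TM10 held the remaining called pairs, with 3 of 8 expressed members lower (*Kera*, *Epyc* and *Bgn*). Of all tested genes at any level, 11.6% were called there. *Epyc* was at 2.15, 3.22 and 1.19 UMIs per 10,000 (log2 fold -1.17 ± 0.24, adjusted p = 6.51e-05, 0.135 with DESeq2). *Dcn* (133.7, 139.2 and 157.7, adjusted p = 0.824) and *Aspn* (log2 fold -0.65 ± 0.23, adjusted p = 0.0514) did not pass. All 4 dissociation stress genes tested were called lower in TM10, with summed levels of 31.2, 33.9 and 15.0, and their part was not tested. *Optc* in label 7 had a log2 fold of -0.58 ± 0.25 (adjusted p = 0.359) and lay between the controls.

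Whether the genotype difference of a gene differs between labels was tested in 7 tests of a gene over 5 pairs of labels with the library as a block. The tests were chosen after their values were seen, so how many passed is not read as a result. Each fit leaves 1 residual degree of freedom. The share of all genes called was 1.94% for label 13 against TM9, 0.714% for TM9 against TM1, 1.46% for TM4 against TM1, 0.292% for TM1 against 13 and 2.33% for TM4 against 13. *Aspn* differed between label 13 and TM9 by 4.03 ± 0.34 SE in log2 fold (adjusted p = 2.23e-05). *Lum* differed between TM4 and TM1 by 1.58 ± 0.16 (adjusted p = 0.000218) and between 13 and TM1 by 2.05 ± 0.18 (adjusted p = 0.000343). *Dcn* differed between TM4 and TM1 by 0.88 ± 0.13 (adjusted p = 0.00269), but between TM9 and TM1 the difference of 0.90 ± 0.18 did not pass (adjusted p = 0.0736). *Fmod* differed between TM4 and 13 by 1.44 ± 0.14 (adjusted p = 8.16e-23). The log2 fold of *Kera* in TM1 minus that in label 13 was -0.71 ± 0.20, which did not pass (adjusted p = 0.31).

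Genes that act on or with the family were counted in the 10 labels that held a called expressed member, where 3.17% of all gene and label pairs were higher and 3.36% lower. These shares cover genes at any level, and the labels were chosen for holding a called member. An excess over these shares is therefore not read as a property of a list. Of 49 pairs of the other small leucine-rich genes, 3 were higher and 3 lower. *Omd*, the neighbour of *Aspn* and *Ogn*, was higher in TM10 (0.729, 0.916 and 2.00 UMIs per 10,000, log2 fold 1.32 ± 0.22, adjusted p = 4e-07), while *Ecm2* was lower there (1.292, 1.5 and 0.492, log2 fold -1.55 ± 0.26, adjusted p = 3.95e-07). Of the enzymes of dermatan and chondroitin sulfate chains 1 of 140 pairs was higher and 2 were lower, and of those of keratan sulfate chains 2 of 72 were higher and 2 lower, with *Chst5* in TM1 among the latter.

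The fibrillar collagens and their partners, the ligands of this family, had 5 of 91 pairs higher and 17 lower. *Col14a1*, which sits on fibril surfaces, was called lower in 5 of 10 labels, among them TM9 (0.361, 0.365 and 0.0457 UMIs per 10,000, log2 fold -2.49 ± 0.41, adjusted p = 6.65e-08), and *Col12a1* in 3 of 10, among them TM10 (1.59, 1.83 and 0.618, log2 fold -1.49 ± 0.25, adjusted p = 6.6e-07). *Col1a1* was lower in label 20 (2.73, 2.35 and 0.662, adjusted p = 2.02e-05). Enzymes that can cleave these proteins had 10 of 61 pairs higher and 7 lower. *Mmp3*, stromelysin, was higher in 7 of 7 labels tested among the 10. In TM9 it was at 0, 0.0438 and 1.56. The filter on low counts can be passed through *Angpt1*ΔNC alone, so the tested labels favour those where *Mmp3* was high in that library. Its highest control level was in TM11 (74.0, 41.8 and 119.0), and the part of free RNA in the other labels was not tested. *Adamts5* was lower in 4 of 10 labels, among them TM4 (0.617, 0.633 and 0.248, log2 fold -1.26 ± 0.22, adjusted p = 0.00191), and *Mmp2* was higher in TM4 (1.24, 1.32 and 2.65, log2 fold 1.12 ± 0.19, adjusted p = 0.00165).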

How the data were processed

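Single-cell suspensions of the limbus and iridocorneal angle were made into 10x Genomics libraries, 2 control and 1 *Angpt1*ΔNC. The deposited matrices hold raw UMI counts, made by the authors with Cell Ranger (2.1.1 in the submitters' processing notes, 3.0.2 in the matrix headers) against mm10. The authors removed cells of low quality and doublets, integrated the libraries in Seurat 3.1.3 and deposited a cell label per kept cell beside integrated natural log values, which were not used here.

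Counts were used as deposited. A level is the UMI count per 10,000 UMIs of a cell, averaged over cells, and was set against the immune labels 22 to 25. For genotype, counts were summed per label and library and fitted with edgeR 4.0.16 in R 4.3.3 (TMM factors, filterByExpr, quasi-likelihood F-test, Benjamini-Hochberg over all genes of a fit). The SE of a log2 fold is its size over the square root of F. Alternatives were RLE size factors, no filter, DESeq2 1.42.0 with its own filter, male-typed cells (a Y-linked UMI and no *Xist*), cells thinned to 1000 UMIs, labels with at least 50 cells and leaving out each control. The fits were tested on simulated data. Nothing says that the control pools came from separate litters, so p-values measure the spread between libraries. Python 3.11.15 with scipy 1.17.1 gave the intervals, which cover counting error only. The members and gene lists were chosen with earlier results of these data known, and the named genes are all 10 members and at most 4 genes of each list.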

Additional observations from a re-analysis of the deposited data

Results flagged for a closer look

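The genotype difference of a gene differed between labels in 5 of 7 tests of the difference itself, over 5 pairs of labels. These tests were chosen after their values were seen, so how many passed does not measure how often labels differ. Of all genes, 0.292 to 2.33% were called in these fits, which leave 1 residual degree of freedom. The log2 fold of *Aspn* in label 13 minus that in TM9 was 4.03, that of *Lum* in 13 minus TM1 was 2.05 and that of *Lum* in TM4 minus TM1 was 1.58. The log2 fold of *Fmod* in TM4 minus that in 13 was 1.44, and that of *Dcn* in TM4 minus TM1 was 0.88. *Aspn* and *Lum* in label 13 rest on 64 *Angpt1*ΔNC cells, and their calls within that label are lost under several alternatives.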

How the results depend on the processing

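Of the 23 called pairs of an expressed gene and a label, 13 were called under every alternative run for them and 10 lost the call under at least 1, and none reversed its direction. The count of members called higher was 11 and lay between 9 and 14 under the alternatives, and the count called lower was 12 and lay between 8 and 14. DESeq2 ended 7 calls, thinning to 1000 UMIs 9, male-typed cells 7 of 22 that could be fitted, no filter 4 and RLE size factors none. *Dcn* in label 19 had no fit in male-typed cells. The limit of 50 cells could not end a call, because every label with a call passed it and was refitted on the same counts. For each call lost, the cause was not tested. Leaving out a control gives folds with no residual degree of freedom, and 5 and 6 of the 23 log2 folds then moved by more than 1 SE. The control levels in leading labels were also taken from summed UMIs, from cells with at least 3000 UMIs and minus the immune level. They stayed within the SD of the 2 controls except *Aspn* in TM10 (9.57 from summed UMIs and 9.03 in cells with at least 3000 UMIs). That SD can be wide, as for *Optc* in label 7 (1.88 and 0.703). Leaving out a control cannot move a level beyond it, so that setting decides nothing here. Shares of positive cells move with depth, so *Ogn* in TM3 and *Prelp* in 13 would have a UMI in 52.9 and 46.6% of control cells at 1000 UMIs. No paired analysis was possible, because there is 1 *Angpt1*ΔNC library and no match between control and *Angpt1*ΔNC pools is stated.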

Other observations

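In the immune labels, *Fmod* had 8.53, 8.72 and 5.73 UMIs per 100 UMIs of *Dcn*, against 6.44, 6.71 and 5.82 in the stromal labels of the same libraries. *Bgn* had 23.6, 23.5 and 10.9 per 100 of *Dcn* in the immune labels against 17.9, 16.8 and 9.87 in the stromal labels.

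*Fmod* was also called in labels where it did not count as expressed. In label 20, where *Bgn*, *Ogn* and *Dcn* were lower, *Fmod* was higher at 0.127, 0.0581 and 0.350 UMIs per 10,000 (log2 fold 2.03 ± 0.37). In TM8 it was at 0.0612, 0.0745 and 0.436 UMIs per 10,000 (log2 fold 2.88 ± 0.37, adjusted p = 0.00117) and in label 19 at 0.138, 0.0997 and 0.758 (adjusted p = 0.00653), whereas in TM10 it fell from 0.398 and 0.799 to 0.0943 (adjusted p = 6.73e-10). *Aspn* in TM1 was at 0.118, 0.192 and 0.45 (adjusted p = 1.47e-06).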
